A study of Mus musculus with 2 samples.

Results

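Olfactory receptor genes form the largest gene family in the mouse genome, and they lie in clusters on many chromosomes. CpG sites inside these genes and in the short gaps between them were examined here. The genes were the autosomal protein-coding genes of GENCODE vM21 (mm10) whose symbol is Olfr followed only by digits, and the gaps were stretches of less than 50 kb between neighbouring genes of that kind. This gave 1087 genes out of 20807 autosomal protein-coding genes, with 1086 distinct symbols, and 935 gaps. Covered CpG sites in the Olfr genes numbered 25616 in replicate 1 and 9682 in replicate 2, out of 13676795 and 4918612 in the whole files. The gaps held 42519 and 14389 further covered sites.

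Both samples came from the same group, untreated E14 mouse embryonic stem cells (mESCs) grown in serum with LIF, and the replicates were taken at different passages of that line. SCoTCH-seq reads unmodified cytosine (C), 5-methylcytosine (M) and 5-hydroxymethylcytosine (H) on both strands of the same DNA molecule, so each call is a pair of letters, the first for the plus strand. There are 9 such states, and mirror images are joined here as MC/CM, HC/CH and HM/MH. MM is a CpG methylated on both strands, CC is unmodified on both, MC/CM is hemimethylated, and HC/CH carries hmC on a single strand opposite an unmodified cytosine. A level is the percentage of all calls in a class of DNA that read as a given state.

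An olfactory receptor is a G protein-coupled receptor of olfactory sensory neurons, and a mature neuron transcribes a single receptor gene from a single allele. Its coding sequence usually lies in a single exon. The third transmembrane helix ends in a conserved Asp-Arg-Tyr (DRY) motif. Class I receptors occupy a run on chromosome 7 around the beta-globin genes, and class II receptors fill the other clusters. Transcripts were not measured in these files, so the cells cannot be checked against RNA markers. The gene set itself can be checked: the longest coding sequence began with methionine in 1081 of 1087 genes, and 852 carried exactly 1 DRY motif between residues 90 and 150, with the Asp at residue 121 in the median gene.

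The DRY motif is shown first because it places a CpG at the same codon of many genes. Its arginine codon starts with CG in 716 of the 852 genes (84.04%), as CGC in 478, CGT in 114, CGA in 64 and CGG in 60. The other 136 genes use an AGA or AGG codon, which has no CpG at this place. The motif windows of some well-studied receptors below were read from GRCm38.p6 on the coding strand, 30 bases each, with the CpG of the arginine codon in capitals.
Olfr16 (lyral receptor), chr1:172957146-172957175, plus strand: caatgggttatgatCGttatgtggctattt
Olfr544 (azelaic acid receptor), chr7:102484728-102484757, minus strand: tcatggctctagatCGctatgtggctatct
Olfr78 (short-chain fatty acid receptor), chr7:102742626-102742655, minus strand: ccatggcctttgacCGgtacgtggctatct
Olfr17, chr7:107097819-107097848, plus strand: caatggcatatgacCGctacatggcgatct
Olfr1507, chr14:52490575-52490604, minus strand: tcatggcctatgatCGctatgtggccattt
Olfr1440 (muscone receptor), chr19:12394617-12394646, plus strand: ccatggcttatgacCGgtatgctgccattt
Olfr73, a eugenol receptor, had no motif in that residue range. The 716 windows held 493 distinct sequences, and 341 genes shared their window with at least 1 other Olfr gene. Where genes are alike over longer stretches, reads from about 100 bp fragments can be assigned to the wrong copy. Levels of single genes are therefore less certain than levels over the family. Likeness beyond these windows was not measured.

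The Olfr genes and gaps are poor in CpG. The Olfr genes held 0.485 CpGs per 100 bases and the gaps 0.549, against 1.00 in other protein-coding genes and 0.747 in other intergenic DNA. The ratio of CpGs observed to those predicted from base composition was 0.137 in Olfr genes, 0.145 in the gaps and 0.216 in other genes. Olfr coding sequence was denser, at 0.883 CpGs per 100 bases. In replicate 1, 72.8% of the reference CpGs of Olfr genes and 51.4% of those in the gaps were covered, and in replicate 2 the shares were 27.5% and 17.4%. The whole files held 143497239 and 31306245 calls, with a median depth of 10 and 6 calls per covered CpG, and a site needed at least 5 calls to be listed.

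Olfr genes were more hemimethylated and carried less hmC than other genes. MC/CM made up 16.4% of 297692 calls in replicate 1 and 17.5% of 62015 calls in replicate 2, against 12.9% and 14.03% in other protein-coding genes of the same autosomes. HC/CH was 2.60% and 1.961%, against 4.48% and 4.02%. The 95% Clopper-Pearson intervals of the Olfr level, which cover counting error only, ran from 2.55 to 2.66% and from 1.85 to 2.07%. HM/MH, hmC opposite methylcytosine, was 3.39% and 1.4996%, against 4.11% and 2.64%. Each replicate thus differed from other genes in the same direction for these 3 states.

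The test compared Olfr with other genes on each autosome and flipped the signs of the differences in all possible ways (exact two-sided sign-flip permutation test, adjusted by Benjamini-Hochberg over 56 tests). The autosomes are blocks of a single library and not biological replicates, so p refers to the spread between autosomes within that library. MC/CM was higher in Olfr genes on 16 of 16 autosomes in replicate 1 and on 14 of 15 in replicate 2 (adjusted p = 0.00057 in both, exact sign-flip permutation test). HC/CH was lower on 15 of 16 and 14 of 15 autosomes, and HM/MH likewise on 15 of 16 and 14 of 15, with an adjusted p of 0.00057 in each of these exact permutation tests. At a coverage minimum of 10, replicate 2 kept few autosomes. These differences kept their direction there but no longer passed. The plot of differences by autosome shows the exception for HC/CH. On chromosome 15, which holds 9 Olfr genes, HC/CH was 0.302 and 0.626 percentage points higher in Olfr genes. The widest HC/CH gap lay on chromosome 2, the autosome with the most Olfr genes (280), at -2.42 and -2.70 percentage points.

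**Figure D1:**
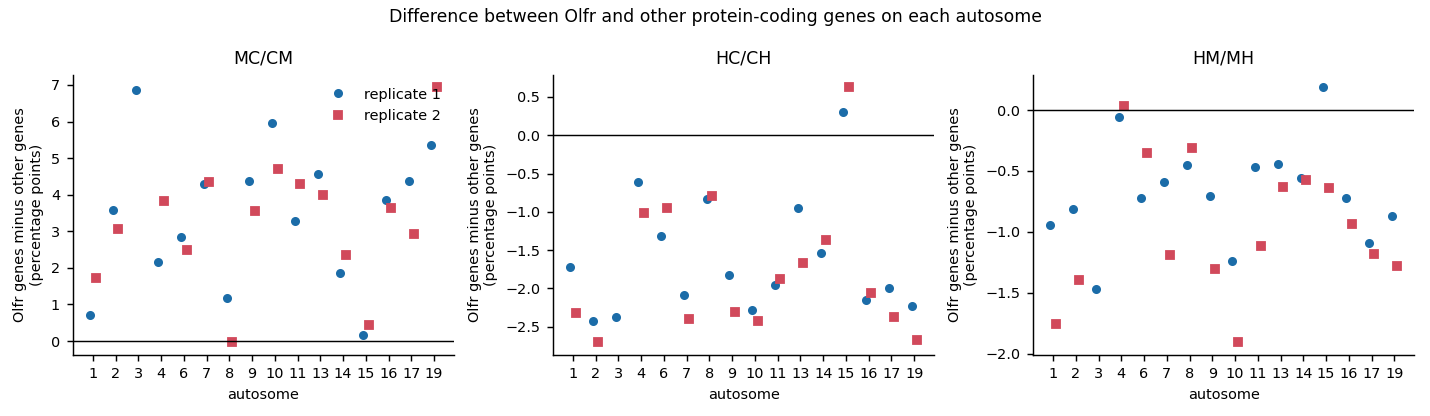
Difference in level (percentage points, y axis) between Olfr genes and other protein-coding genes on each autosome (x axis) for MC/CM, HC/CH and HM/MH, with circles for replicate 1 and squares for replicate 2. MC/CM lies above 0 on 16 of 16 and 14 of 15 autosomes and HC/CH below 0 on 15 of 16 and 14 of 15.

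Fully methylated CpGs were more frequent in Olfr genes than in other genes as well. MM was 58.6% and 63.7%, against 54.4% and 58.4%, higher on 12 of 16 and 11 of 15 autosomes (adjusted p = 0.0199 and 0.0174, exact sign-flip permutation test). CC was 18.7% and 15.2%, against 23.7% and 20.8%, lower on 13 of 16 and 11 of 15 autosomes (adjusted p = 0.00883 and 0.0202, same exact test). These differences did not pass against genes of similar CpG density. Against the 6650 other genes within the 5th to 95th percentile of CpG density of the Olfr genes, the MM difference was -0.0471 percentage points in replicate 1 and 0.555 in replicate 2, and neither passed (adjusted p = 0.400 and 0.616, exact permutation test). For CC the corresponding differences were 0.109 and -0.320.

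The hemimethylation and hmC differences were smaller against genes in this range of CpG density and still passed. The part of density differences within the range was not tested. HC/CH of those genes was 3.62% and 3.04%, and the Olfr genes minus these genes differed by -1.02 and -1.08 percentage points on the compared autosomes (adjusted p = 0.0160 and 0.0271, exact permutation test). MC/CM was 1.59 and 1.57 points higher in Olfr genes (adjusted p = 0.0254 and 0.0270, exact permutation test). The HM/MH difference was -0.562 and -0.678 points (adjusted p = 0.00256 and 0.0214, exact permutation test). The plot of levels by class shows where the Olfr genes sit among these classes.

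**Figure D2:**
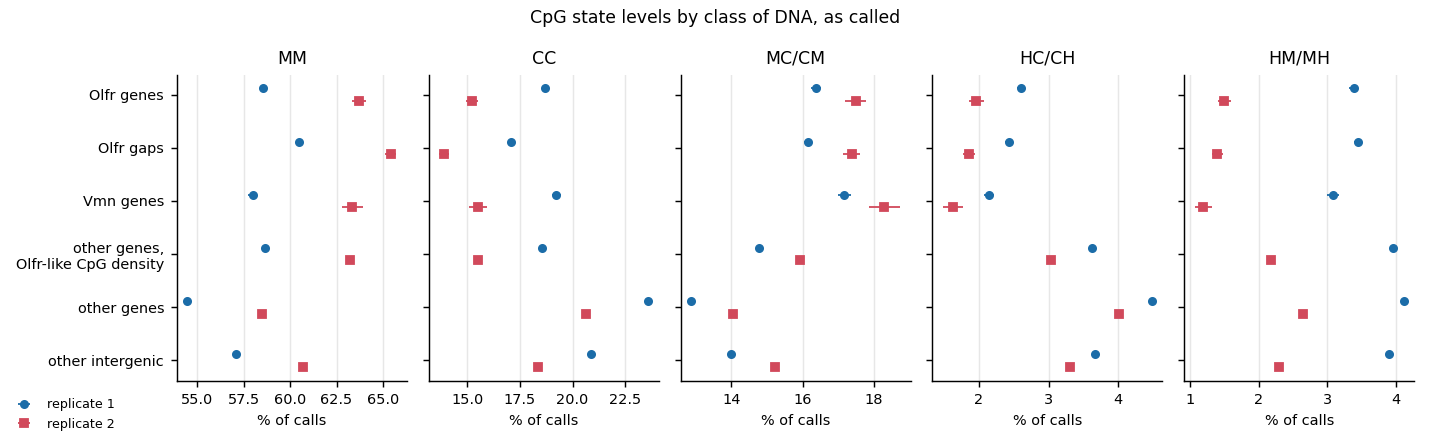
Levels of MM, CC, MC/CM, HC/CH and HM/MH (percent of calls, x axes, which do not start at 0) in 6 classes of DNA over the 19 autosomes, with circles for replicate 1, squares for replicate 2 and bars for 95% Clopper-Pearson intervals. Olfr genes, their gaps and vomeronasal receptor genes have HC/CH of 2.14 to 2.60% in replicate 1, against 3.62% in other genes of Olfr-like CpG density.

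Miscalls add to the hmC levels. In the synthetic spike-in DNA of known state, 4.51% of the calls at MM sites of replicate 1 read as HM/MH, against 0.467% in replicate 2. Solving for the true states with each replicate's own rates, Olfr genes had 0.525% and 1.15% HM/MH and 1.959% and 1.83% HC/CH. Other genes of all 19 autosomes had 1.48% and 2.29% HM/MH and 3.99% HC/CH in both replicates. The corrected differences had the same directions and passed the same exact permutation test (adjusted p from 0.000488 to 0.0186 over the 5 states and both replicates).

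The gaps between Olfr genes differed from other intergenic DNA in the same directions. HC/CH was 2.42% and 1.86% in the gaps, against 3.71% and 3.33% in other intergenic DNA of the same autosomes, lower on 14 of 15 autosomes in each replicate (adjusted p = 0.00057 in both, exact sign-flip permutation test). MC/CM was 16.1% and 17.4%, against 13.9% and 15.2%, higher on 14 of 15 autosomes (adjusted p = 0.00273 and 0.00057, exact permutation test). HM/MH was 3.45% and 1.40%, against 3.90% and 2.31%, and MM was 60.5% and 65.4%, against 56.9% and 60.4%. All 10 tests of the gaps passed, with adjusted p from 0.00057 to 0.0257 in the exact permutation test. The gaps were not compared with intergenic DNA of similar CpG density. At a coverage minimum of 10 the gaps lost the calls of MM (2.6995 points) and CC (-3.20) in replicate 1 and of HM/MH (-0.797) in replicate 2.

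Between genes and gaps the differences were small. The MM level inside the genes of the 15 compared autosomes was 58.6% and 63.7%, and minus that of the gaps it was -1.95 and -1.71 percentage points, lower on 12 of 15 autosomes in each replicate (adjusted p = 0.0233 in both, exact sign-flip permutation test). The MM call of replicate 2 was lost at a coverage minimum of 10 (-1.59). HC/CH was higher inside the genes by 0.181 points in replicate 1 (adjusted p = 0.0204) and by 0.106 points in replicate 2 (adjusted p = 0.0965) in the same exact permutation test. The HC/CH call of replicate 1 was lost with only sites covered in both replicates (0.206), and the difference in replicate 2 was -0.360 at a coverage minimum of 10. Olfr pseudogenes lying in the gaps, with 1014 and 370 covered sites, had 2.34% and 1.99% HC/CH and 15.8% and 17.8% MC/CM. These levels were near those of the intact genes and also near those of the gaps as a whole.

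The class I run at chr7:102476579-105369355 held 124 Olfr genes. Its HC/CH was 2.41% and 1.74%, against 2.63% and 1.99% in the other Olfr genes. The 95% Clopper-Pearson intervals overlapped in both replicates, in replicate 1 only at their ends (2.26 to 2.575% against 2.569 to 2.69%). MC/CM was 15.7% and 15.9%, against 16.5% and 17.7%, and these intervals did not overlap in either replicate. The intervals cover counting error only. The run lies on chromosome 7 and the other Olfr genes on many autosomes, so this comparison does not separate class from chromosome. Chromosome 7 holds 236 Olfr genes, so some lie outside the run, but a comparison within that chromosome is not given here. As a further chemosensory family, the 326 vomeronasal receptor genes, which serve pheromone detection, had 2.14% and 1.62% HC/CH and 17.2% and 18.3% MC/CM. These comparisons within and between receptor families were not tested.

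The 63 clusters of 5 or more Olfr genes held 938 of the genes. HC/CH over a whole cluster, genes and gaps together, ran from 1.55 to 3.75% with a median of 2.28% in replicate 1, and from 0.856 to 3.48% with a median of 1.66% in replicate 2. Spearman's rho between the replicates was 0.737 over the 63 clusters for HC/CH, 0.797 for MM and 0.879 for CC. The largest cluster, of 92 genes at chr2:85579215-87458911, had 2.10% and 1.28% HC/CH. The highest HC/CH in both replicates was in the 13 genes at chr4:118658952-118938612, with 3.75% and 3.48%. The lowest MM in both replicates, 50.3% and 52.4%, was in the 13 genes from Olfr90 to Olfr103 at chr17:37083871-37339698. The highest CC in both, 31.2% and 30.4%, was in the 25 genes from Olfr605 to Olfr67 at chr7:103440407-103791821, which belong to the class I run.

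The levels differed across the cluster edges. In the outermost 50 kb inside the clusters, HC/CH was 2.42% in replicate 1 and 1.86% in replicate 2. From 0 to 50 kb outside the outermost gene it was 3.25% and 2.85%, and from 50 to 100 kb outside 3.90% and 3.46%. At 450 to 500 kb it was 4.35% and 3.90%. MC/CM went the other way, from 16.1% and 17.7% just inside to 13.0% and 14.5% at 50 to 100 kb and 12.5% and 13.8% at 450 to 500 kb. With only sites in no protein-coding gene, HC/CH was 2.33% and 1.85% just inside and 3.70% and 3.204% at 50 to 100 kb outside. The profile over the edges was described and not tested.

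**Figure D3:**
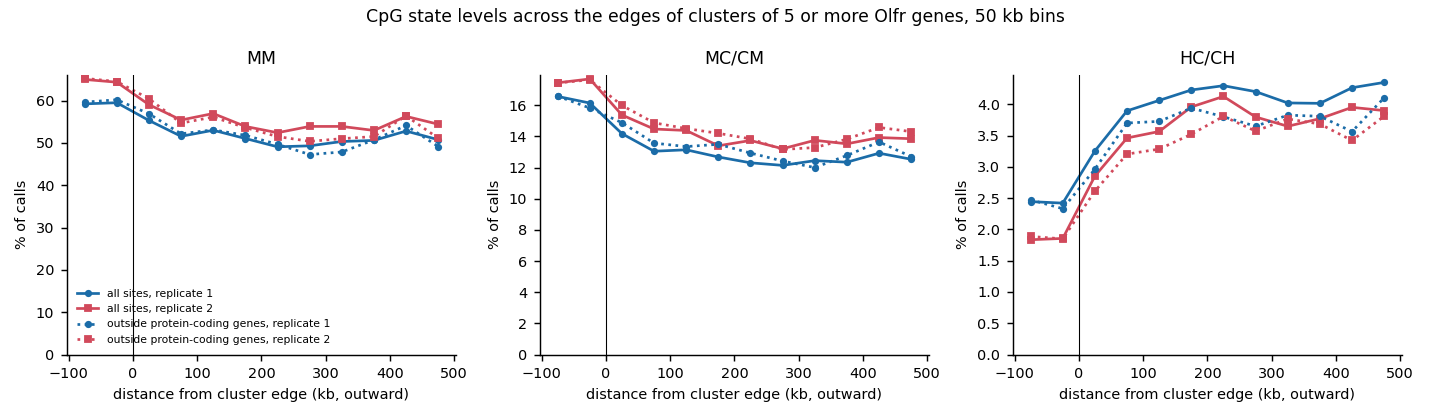
Levels of MM, MC/CM and HC/CH (percent of calls, y axes from 0) in 50 kb bins by distance from the edge of clusters of 5 or more Olfr genes (x axis, negative inside), with solid lines for all sites, dotted lines for sites in no protein-coding gene, and colours for the replicates. HC/CH lies at 2.42% and 1.86% in the last bin inside and at 3.90% and 3.46% in the second bin outside.

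MM varied little around the starts of Olfr genes. From 5.0 to 4.5 kb before the start MM was 61.4% and 66.6%, and from 4.5 to 5.0 kb after it 59.6% and 64.6%. In the first 0.5 kb after the annotated start, MM was 55.8% and 62.5% in Olfr genes and 8.77% and 9.83% in other genes. CC there was 20.8% and 16.95%, against 86.7% and 85.0%. The plot of levels around gene starts shows this beside a deep trough in other genes. In replicate 1 the lowest Olfr bin was the first after the start, and in replicate 2 the bins from 0.5 kb before to 2.5 kb after the start lay between 61.3% and 63.9%. In other genes HC/CH was 1.41% and 1.62% in that bin, below the Olfr level of 2.55% and 2.15%, while 2.0 to 2.5 kb after the start it was 5.13% and 4.88%, above the Olfr level of 2.47% and 1.62%. These profiles were not tested.

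**Figure D4:**
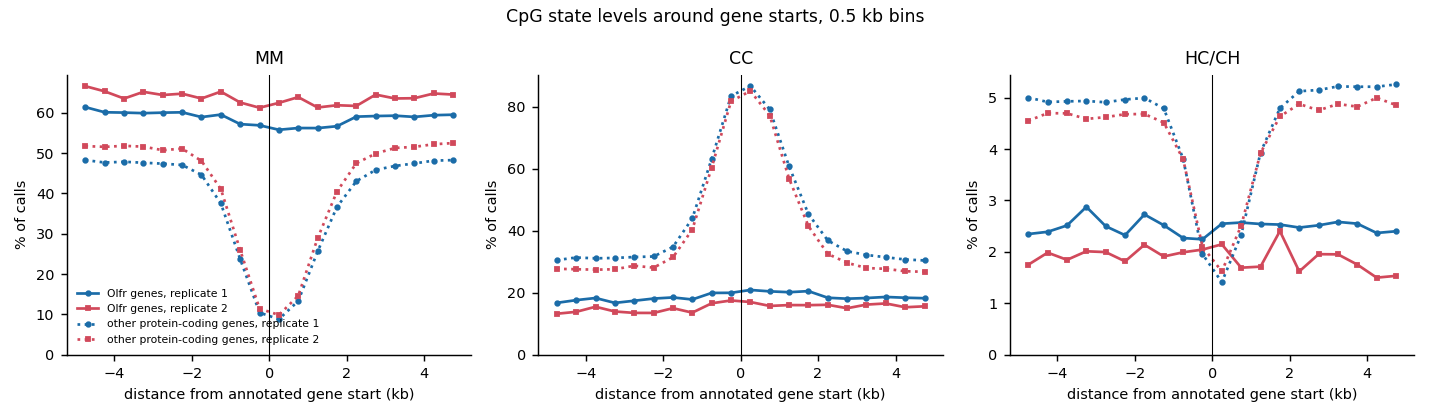
Levels of MM, CC and HC/CH (percent of calls, y axes from 0) in 0.5 kb bins by distance from the annotated gene start (x axis, kb), with solid lines for Olfr genes, dotted lines for other protein-coding genes and colours for the replicates. The lowest MM of any Olfr bin is 55.8%, in replicate 1 at the start, where MM is 8.77% and 9.83% in other genes.

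The promoter windows differ in their CpG number. RefSeq windows from 250 bases before to 50 after the start (GRCm38.p6) were matched by symbol for 922 Olfr symbols, in 926 windows. The median Olfr window held 1 CpG and 313 windows (33.8%) held none, against a median of 15 CpGs and 2.71% without a CpG in 18248 windows of other protein-coding genes. Among windows with 1 to 3 CpGs, MM was 56.9% and 63.5% in the 554 Olfr windows and 49.5% and 53.5% in 2861 windows of other genes. HC/CH in those windows was 2.51% and 2.26% in Olfr and 4.81% and 4.64% in other genes. The homeodomain core TAATTA, which reads the same on both strands, occurred in 18.8% of Olfr windows and 3.66% of the others. The palindrome CCCNNGGG, the core bound by Olf/EBF factors, occurred in 3.02% and 16.99%. These matches are letters in a window and carry no call of their own. The windows were not matched for base composition or CpG number when the motifs were counted.

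Within the Olfr genes, coding sequence differed from introns. MC/CM was lower in coding sequence, at 14.1% and 15.5% against 17.2% and 18.7% in introns, on 15 of 15 and 11 of 13 autosomes (adjusted p = 0.00057 and 0.00342, exact sign-flip permutation test). HM/MH was higher in coding sequence, at 3.94% and 1.99% against 3.18% and 1.28% (adjusted p = 0.00105 and 0.0423, exact permutation test). Corrected for miscalls, the HM/MH levels were 0.805% against 0.401% in replicate 1, a difference of 0.404 points where the called difference was 0.758. The HM/MH call of replicate 2 was lost without chromosome 7 (difference 0.653) and with only sites covered in both replicates (0.604). MM was 64.4% and 67.9% against 56.7% and 62.1%, and this passed in replicate 1 (adjusted p = 0.00195) but not in replicate 2 (adjusted p = 0.0917, exact permutation test). CC was 14.2% against 20.1% in replicate 1 (adjusted p = 0.0218) and 12.3% against 15.9% in replicate 2 (adjusted p = 0.288), and HC/CH was 2.90% against 2.48% (adjusted p = 0.0233) and 2.20% against 1.91% (adjusted p = 0.274, exact permutation tests). The HC/CH call of replicate 1 was lost with only sites covered in both replicates. In other genes MM and CC had the opposite order, with MM of 49.4% and 53.5% in coding sequence and 55.95% and 60.04% in introns. For MC/CM and HM/MH, other genes had the same order as Olfr genes. Their MC/CM was 9.54% and 10.8% in coding sequence against 13.4% and 14.6% in introns, and their HM/MH 4.26% and 3.07% against 4.15% and 2.61%. These levels of other genes were not tested.

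Calls on the coding strand and on the opposite strand did not differ detectably. CpGs methylated only on the coding strand made up 8.07% and 8.77% of the calls, and those methylated only on the opposite strand 8.30% and 8.72%. For hmC opposite an unmodified cytosine the levels were 1.28% and 0.927% with hmC on the coding strand and 1.32% and 1.03% with hmC on the other. None of the 6 tests of strand passed (adjusted p from 0.326 to 0.973, exact sign-flip permutation test), and the differences lay between -0.232 and 0.0469 percentage points.

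The CpG of the DRY arginine codon was covered in 540 genes in replicate 1, 176 in replicate 2 and 167 in both. MM at this CpG was 69.8% of 5727 calls in replicate 1, against 63.8% at the other coding CpGs of the same genes, higher on 11 of 14 autosomes (adjusted p = 0.0204, exact sign-flip permutation test). In replicate 2 it was 72.0% of 1085 calls against 70.8%, higher on 3 of 10 autosomes (adjusted p = 0.893, exact permutation test). The difference passed in replicate 1 only, and whether the replicates differ was not tested. The DRY CpG lies in codon bases 1 and 2, and all Olfr coding CpGs at that codon position had 66.8% and 70.96% MM, against 62.4% and 65.6% in codon bases 2 and 3 and 62.4% and 65.7% across codons. That position class includes the DRY CpGs themselves and is not limited to genes with a covered DRY CpG. The part of codon position in the difference was not tested. In the windows printed above, Olfr78 had 8 MM calls out of 10 at this CpG in replicate 1. Olfr16, covered in both replicates, had 5 MM and 7 MC/CM calls out of 14 in replicate 1, and 3 MM and 5 MC/CM calls out of 9 in replicate 2.

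Levels of single genes were compared for the 371 Olfr genes with at least 10 covered CpGs and 60 calls in each replicate, among 17469 autosomal genes that met this limit. No site was covered in 28 Olfr genes in replicate 1 and in 60 in replicate 2. The HC/CH level was in the lowest quartile of all genes in both replicates for 231 of the 371 (62.3%), where 16.8% of all tested genes were. It was in the highest quartile for 7 (1.89%), against 16% of all. The MC/CM level was in the highest quartile for 207 (55.8%, against 17.3%) and in the lowest for 2 (0.539%, against 19%). The MM level was in the highest quartile for 164 (44.2%, against 19.8%) and in the lowest for 5 (1.35%, against 21.5%). For CC the counts were 6 in the highest quartile (1.62%, against 21.5%) and 177 in the lowest (47.7%, against 20.6%). For HM/MH they were 17 in the highest (4.58%, against 11%) and 130 in the lowest (35.0%, against 12.8%). Levels of single genes were not corrected for miscalls. In replicate 1 the lowest HM/MH quartile ended at 3.18% and the highest began at 4.48%. In that replicate 4.51% of the calls at MM sites of the spike-ins read as HM/MH.

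Genes with few covered sites have noisier levels, and the Olfr genes had a median of 35 sites in replicate 1, against 189 over all tested genes. The quartiles were therefore cut again within the 2979 genes with 20 to 73 covered sites in replicate 1, the 5th to 95th percentile of the tested Olfr genes. The lowest HC/CH quartile then ended at 2.21% and 1.28%, against 3.43% and 2.68% over all tested genes. It held 81 of 337 Olfr genes (24.0%) in both replicates, against 13.7% of those genes. For MC/CM 151 (44.8%) were in the highest quartile, against 15.6%, and for MM 135 (40.1%), against 18.4%. For HM/MH the shares were below those of all these genes at both ends, with 20 (5.93%) in the lowest quartile, against 11.8%, and 17 (5.04%) in the highest, against 10.9%. The genes in this range differed from all tested genes in level as well as in site number. In replicate 1 their lowest MM quartile ended at 24.7%, against 39.8% over all tested genes. Their highest MM quartile began at 59.3%, against 58.3%. The parts of noise and of this difference in the smaller share of Olfr genes in the lowest HC/CH quartile were not tested. Spearman's rho between the replicates over the 371 Olfr genes was 0.741 for CC and 0.618 for MM, and it was lower for HC/CH (0.373), MC/CM (0.198) and HM/MH (0.205). These correlations describe genes and are limited by the counts per gene.

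The well-studied receptors lay within the spread of the family, whose tested genes ran from 26.8 to 74.0% MM in replicate 1 and from 13.1 to 88.0% in replicate 2. MM of the 8 genes that met the limit of sites and calls ran from 52.0% in Olfr1507 to 65.6% in Olfr2, an octanal receptor, in replicate 1, and from 53.5% in Olfr17 to 69.8% in Olfr78 in replicate 2, leaving out Olfr73, which had 48 calls there and did not meet the limit (MM 62.9% and 72.9%). Olfr78, the gene with the most calls among them, at chr7:102738511-102759471, had an MM level of 62.2% in replicate 1 (95% Wilson interval 59.4 to 64.8%, 1242 calls) and 69.8% in replicate 2 (63.6 to 75.4%, 232 calls). HC/CH of Olfr78 was 2.42% and 2.59%. HC/CH of Olfr2 was 1.60% (95% Wilson interval 0.624 to 4.04%) and 1.59% (0.281 to 8.46%, 63 calls). Olfr1440 had the highest MC/CM of the 9 in both replicates, 21.7% and 27.7%. Olfr544 had the lowest MC/CM in both, 11.1% and 7.84%, and the highest HC/CH, 4.02% and 4.90%. Olfr151, a further well-studied receptor, is annotated as a polymorphic pseudogene in this release and is not among the members.

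The 5 Olfr genes with the highest MM were chosen by the lower of their replicate levels, so that other genes can be higher in a single replicate. Olfr532 at chr7:140415710-140421639 had 73.6% and 81.0% MM, and Olfr368 on chromosome 2 had 73.3% and 80.5%. Olfr632 and Olfr639 of the class I run and Olfr522 on chromosome 7 had between 70.5% and 74.0% in both replicates. The 5 genes with the lowest MM were chosen by the higher of their replicate levels and fell into 2 neighbourhoods. Olfr94, Olfr95 and Olfr90 belong to the chromosome 17 cluster, and Olfr629 and Olfr69 to the class I run. Olfr94, at chr17:37196425-37200994, had 26.8% and 13.1% MM with 57.2% and 75.5% CC. Olfr95, the next gene at chr17:37207950-37213118, had 31.5% and 29.3% MM with 48.5% and 54.4% CC. Olfr629 had 31.7% and 35.6% MM, Olfr90 had 36.9% and 31.1%, and Olfr69 had 38.1% and 40.3%. In these 3 genes many CC calls came from scattered reference CpGs that read CC in every call. Whether the cells have a CpG at each of these positions was not tested. Of the CpGs covered in both replicates, 6 of 13 in Olfr629, 4 of 8 in Olfr90 and 4 of 11 in Olfr69 were CC in all calls of both. In replicate 1, CpGs with only CC calls held 119 of 150 CC calls of Olfr629, 69 of 128 of Olfr90 and 85 of 119 of Olfr69. Methylated CpGs lay between them, as at 4156 bases from the start of Olfr629, where 1 of 17 calls was CC, next to 4118 bases, where 13 of 13 were.

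Most CC calls of Olfr94 and Olfr95 lay in the coding sequence. In Olfr94, 303 of 362 coding calls were CC in replicate 1 (83.7%) and 191 of 216 in replicate 2 (88.4%), against 22.9% and 37.8% in the rest of the gene. In Olfr95 the coding share was 79.8% and 81.5%, against 21.0% and 21.2% in the rest. Between 3.5 and 4.0 kb from the start of Olfr94, inside the coding exon, 97.6% of the calls were CC in both replicates. The stretch of Olfr94 went on past the coding end, and from 4.0 to 4.5 kb, where coding and noncoding CpGs meet, CC was 91.1% and 88.6%. These were the only genes with CC of at least 50% in coding sequence in both replicates, out of 247 Olfr genes with at least 3 coding sites and 20 coding calls in each. The coding sequence of Olfr94 has 86 CpGs, the most of all Olfr genes, and that of Olfr95 has 42, where the median gene has 7. Over the 247 genes, Spearman's rho between coding CpG density and coding CC was 0.0273 and 0.00862, given as a description. In the other 10 Olfr genes with 30 or more coding CpGs, coding CC was 22.5% and 16.5%. It was 15.3% and 10.4% in genes with 20 to 29, and 14.5% and 11.7% in genes with at most 4. Those 10 genes ran from 4.62% in Olfr284 to 49.4% in Olfr279 in replicate 1, and Olfr279 had 28.6% in replicate 2. Olfr1344 lay just under the limit of 50%, with 48.1% in both replicates, and Olfr322 had 39.5% and 43.5%. Coding CC of single genes outside the family was not computed.

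The contrast can be seen in 30-base windows of coding sequence, each the stretch with the most covered CpGs in replicate 1, with CpGs in capitals on the coding strand (GRCm38.p6).
Olfr94, chr17:37197368-37197397, minus strand: CGtcatggCGctggacCGCGCGgctgCGgt
Olfr95, chr17:37211147-37211176, minus strand: CGcatcccatcCGctgctggtCGcCGcaaa
Olfr632, chr7:103937756-103937785, plus strand: cCGtctgatagcaatcCGattccCGctgCG
Olfr522, chr7:140162040-140162069, minus strand: CGcaacCGtgacatcagagaggcatttacc
The window of Olfr94 has 6 CpGs, and 36 of 36 calls in replicate 1 and 19 of 20 in replicate 2 were CC. In Olfr95, 23 of 30 calls were CC in replicate 1. In Olfr632, whose window has 4 CpGs, 27 of 38 calls were MM and 3 were CC in replicate 1. In Olfr522, 25 of 31 calls were MM and 1 was CC.

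HC/CH was higher in the coding sequences with the most CpGs, and other states with hmC were not split by CpG number. HC/CH in coding sequence was 2.30% and 1.75% in the 262 genes with at most 4 coding CpGs, 2.55% and 1.53% in the 514 genes with 5 to 9, and 2.44% and 1.87% in the 197 genes with 10 to 14. It was 2.90% and 1.80% in 59 genes with 15 to 19, and 4.53% and 3.36% in 43 genes with 20 to 29. In the 12 genes with 30 or more CpGs it was 6.83% (95% Wilson interval 5.94 to 7.84%) and 7.06% (5.51 to 8.997%). Without Olfr94 and Olfr95 the last value was 7.09% and 8.16% over 10 genes. The last bin holds fewer than 20 genes, and the bins were described without a test.

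**Figure D5:**
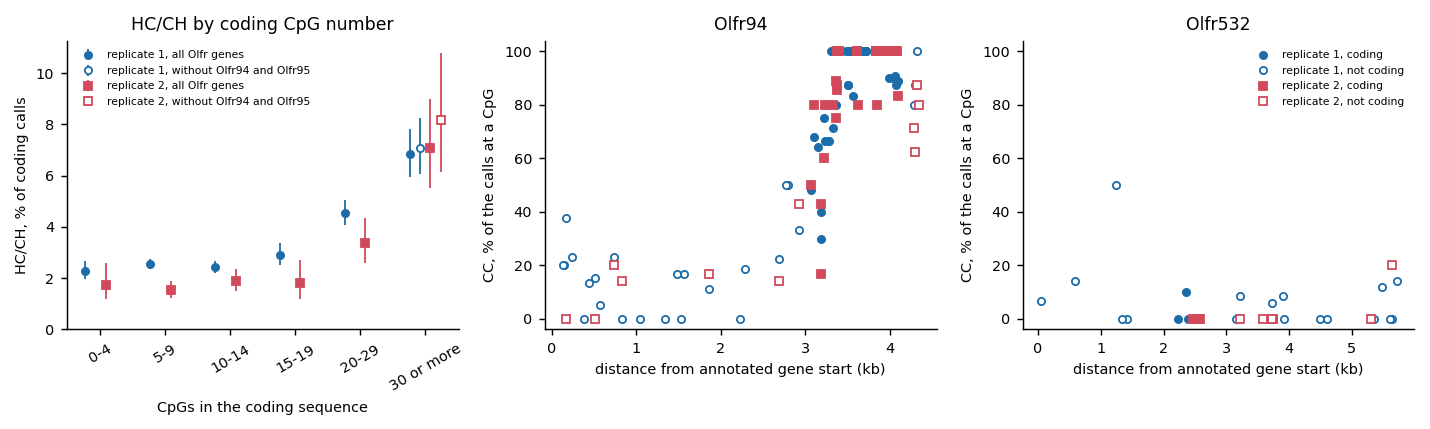
Left, HC/CH level of Olfr coding sequence (percent of coding calls, y axis from 0) by the number of CpGs in the coding sequence (x axis), with bars for 95% Wilson intervals and open symbols for the last bin without Olfr94 and Olfr95. Middle and right, CC percentage at each covered CpG (y axis) by distance from the annotated gene start (kb, x axis) in Olfr94 and Olfr532, filled for coding CpGs, where 97.6% of the calls of Olfr94 between 3.5 and 4.0 kb are CC and each coding CpG of Olfr532 holds at most 1 CC call.

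Levels of single CpG-rich genes rest on few coding calls in replicate 2. Olfr279, with 39 coding CpGs, had 12.1% and 16.1% HC/CH in coding sequence (9 of 56 calls in replicate 2). Olfr1349, also with 39, had 9.73% and 17.02% (8 of 47 calls in replicate 2). Olfr281, with 42 coding CpGs, had 7.78% and 9.21% HC/CH (7 of 76 calls in replicate 2) and 8.65% and 5.26% CC. Olfr284, with 32, had 73.3% and 80.0% MM and 4.10% HC/CH in replicate 1, and no HC/CH call among 15 in replicate 2. Over the whole gene, and ranked by the lower of the replicate levels, the highest HC/CH levels were those of Olfr986 on chromosome 9 (8.43% and 8.56%), Olfr279 on chromosome 15 (6.53% and 6.98%), Olfr1344 (6.50% and 13.4%) and Olfr543 (8.55% and 6.09%) on chromosome 7, and Olfr222 on chromosome 11 (7.12% and 5.75%). The Wilson interval of Olfr986 ran from 6.66 to 10.6% in replicate 1 and from 5.34 to 13.4% in replicate 2. Highest in HM/MH by the same rank, without correction for miscalls, were Olfr71 (6.31% and 7.88%), Olfr214 (6.09% and 5.38%), Olfr221 (5.74% and 5.06%), Olfr1381 (4.73% and 5.56%) and Olfr314 (4.56% and 4.65%). These genes were picked for their values, which are therefore given without a test.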

How the data were processed

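Per the labels, genomic DNA of E14 mESCs was sequenced in 2 replicates. The authors trimmed reads with Cutadapt, aligned them to mm10 with BSBolt, removed duplicates with Picard, dropped blacklisted regions and listed CpGs with at least 5 calls, with a deposited count of calls for each CpG state and a percent of the depth. Versions named in the submitters' processing notes are cutadapt 4.6 and Picard 3.1.1. The percent column of the authors equalled count over depth on every line within 1e-06 and was not used further.

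Counts of each state were summed over the CpGs of a class, each replicate apart (Python 3.11.15, numpy 2.4.6, pandas 2.3.3, scipy 1.17.1, statsmodels 0.14.6). Genes came from GENCODE vM21 and sequence from GRCm38.p6. Sequence variants of the cells against this reference were not looked up, so CC levels can include reference CpGs that the cells lack. Sites of an Olfr class lay inside any member gene or gap. Classes were compared on autosomes with at least 300 calls in each class (30 for the DRY CpG) by exact two-sided sign-flip permutation of the autosome differences, with a threshold of 0.05 on Benjamini-Hochberg adjusted p over 56 tests. 31 tests passed. Printed levels and differences pool all calls of the autosomes that hold both classes, and the test used the mean of the differences per autosome. The spike-in correction solved a matrix of 9 true by 9 called states and kept negative solutions. Single genes were placed in the quartiles of all tested genes in both replicates. For genes with a similar number of covered sites, the quartiles were cut again within those genes. Named genes were 10 well-studied receptors, the 5 highest and 5 lowest in MM, and the 5 highest in HC/CH and in HM/MH, ranked on the lower of the replicate levels (for lowest, the higher). Of the 10 receptors, Olfr151 is not a member. Motif windows of some receptors are not reported here. The split by coding CpG number, with the genes it names, was chosen after values were seen. The members, lists and tests were chosen with earlier results of these data known. The tests were tested on simulated data. The alternatives were a coverage minimum of 10, per-site means, shared sites, the spike-in correction, genes of similar CpG density, sites outside annotated genes, and leaving out an autosome or a replicate. Intervals are Clopper-Pearson for classes and Wilson for genes and coding bins, and cover counting error only.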

Additional observations from a re-analysis of the deposited data

How the results depend on the processing

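Of 388 recomputed values, 331 kept their direction and their side of the threshold or moved little. They include 65 of the 76 values with 1 replicate left out. For means of the 2 replicates among these, only a reversal could count as a change. Either replicate lies within 1 standard deviation of their mean by construction, so those values are no measure of stability in size. The MC/CM, HC/CH and HM/MH differences of Olfr genes and gaps kept their direction under every alternative run. Percentage points are given for replicate 1 unless stated, and the cause of each change was not tested. At a coverage minimum of 10, replicate 2 kept only 6 autosomes for Olfr genes against other genes, and the differences no longer passed for MM (2.46, and 5.48 in replicate 2), CC (-3.01 and -5.05) and, in replicate 2, MC/CM (3.22), HC/CH (-2.17) and HM/MH (-1.36). With 6 autosomes the smallest p that this exact permutation test can give is 0.03125 before adjustment, and MM, MC/CM, HC/CH and HM/MH of replicate 2 were at it. At this minimum the gaps also lost MM (2.6995), CC (-3.20) and, in replicate 2, HM/MH (-0.797), and genes minus gaps lost MM in replicate 2 (-1.59) and gained CC (1.56). With only sites covered in both replicates, Olfr genes against other genes lost MM (3.09) and CC (-3.72), genes minus gaps lost HC/CH (0.206), and coding sequence minus introns lost HC/CH (0.326) and, in replicate 2, HM/MH (0.604) and gained MM (6.25). Without chromosome 7, coding sequence minus introns in replicate 2 lost HM/MH (0.653). Against genes of similar CpG density, MM (-0.0471 and 0.555) and CC (0.109 and -0.320) no longer passed. Outside annotated genes, genes minus gaps gained CC (1.76), and with per-site means the DRY CpG gained CC (-4.48).

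Apart from MM and CC in replicate 1 against genes of similar CpG density, given above, direction turned only for differences that had not passed in that replicate. For genes minus gaps, HM/MH became 0.0383 when corrected, and in replicate 2 MC/CM became -0.0367 outside annotated genes, HC/CH -0.360 and HM/MH -0.232 at a coverage minimum of 10. For the DRY CpG, HM/MH became -0.166 with per-site means and -0.270 when corrected. For strand in replicate 2, HC/CH became 0.107 at a minimum of 10, and HM/MH -0.00194 with per-site means and -0.0153 with shared sites. With 1 replicate left out, the mean difference ran from -0.0567 to 0.105 for HM/MH of genes minus gaps, from -0.232 to 0.0469 for MC/CM by strand and from -0.0624 to 0.00162 for HM/MH by strand.

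Among genes with a similar number of covered sites, the count of Olfr genes was 0 for lowest MM, highest CC and lowest MC/CM (21.5%, 21.5% and 19% of all those genes), 81 for lowest HC/CH (13.7%) and 20 for lowest HM/MH (11.8%). The quartiles of those genes have other limits than the quartiles of all tested genes, as given above for MM and HC/CH. With 1 replicate left out, when each quartile holds an equal part of all tested genes by construction, the counts ran from 7 to 9 for lowest MM, 7 to 10 for highest CC, 3 to 23 for lowest MC/CM, 14 to 22 for highest HC/CH, 48 to 78 for highest HM/MH and 176 to 244 for lowest HM/MH. With only sites in no protein-coding gene, HC/CH at 0 to 50 kb outside clusters was 2.96% and 2.61%, and 4.10% at 450 to 500 kb in replicate 1. MC/CM was 14.9% and 15.99% at 0 to 50 kb, and 12.7% and 14.3% at 450 to 500 kb. No value was obtained at a minimum of 10 for coding sequence minus introns or the DRY CpG in replicate 2. No paired analysis was possible because the study has a single group, so no replicate numbers pair samples across groups. The sign-flip test pairs classes by autosome within a library.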
